A study of Mus musculus with 14 samples.

Results

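The comparison described here sets mouse ventricles labelled Rad knockout against wild-type (WT) ventricles, all of them after transverse aortic constriction (TAC). The libraries were chosen by genotype label and operation: 4 labelled Rad KO TAC and 4 WT TAC, 8 of the 14 libraries in the series. The other 6 are 3 WT sham and 3 Rad KO sham libraries. Every library is polyA-enriched RNA of whole ventricle. Per the labels' protocols, tamoxifen followed the operation by 4 weeks. Harvest came over 2 months after TAC, and for the libraries labelled Rad KO over 1 month after the knockout. By their labels, the Rad gene was not targeted in the WT TAC group and was targeted in the Rad KO TAC group once the ventricle was already under load. The labels give no Cre line or promoter, no deleted exon, no age and no strain, and do not say that each library is 1 animal. The p-values therefore measure the spread between these libraries, which may be technical.

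Rrad encodes Rad, one of the RGK group of small GTPases. RGK proteins bind the beta subunits of voltage-gated calcium channels and hold down the L-type current that triggers contraction, and beta-adrenergic phosphorylation of Rad releases that hold. TAC narrows the aortic arch so that the left ventricle pumps against a raised pressure. A loaded ventricle enlarges, re-expresses fetal genes such as the natriuretic peptides and beta-myosin, and lays down matrix. The comparison asks what the Rad KO label adds to that state.

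The 8 libraries held 14546176 to 17652010 counts per library, and 13967 genes were tested. The first principal component of log2 CPM took 25.4% of the variance and did not part the labels: it ran from -13.1 to 29.8 in WT TAC and from -24.2 to 4.84 in Rad KO TAC. Levels are counts per 1000000 (CPM) on 1 scale for all 14 libraries, and gene positions follow mm10, as deposited. A gene passed when its adjusted p was under 0.05 in the quasi-likelihood test of edgeR, with Benjamini-Hochberg adjustment across all genes tested.

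The targeted gene did not part the groups. Rrad (ENSMUSG00000031880) lies on the minus strand of chromosome 8, from 104628070 to 104631327. WT TAC 1 to 4 held 128, 222, 242 and 208 CPM of it. It stood at 164, 242, 198 and 119 CPM in the libraries labelled Rad KO TAC 1 to 4. Each group spanned nearly the range of the other. The log2 fold change of Rad KO TAC over WT TAC was -0.15 (SE 0.23, 95% interval -0.65 to 0.34, adjusted p = 0.989, edgeR). Gene-level counts cover every exon, so a transcript that lacks the deleted exons would still count through its other exons. How far the deletion should lower this count is not known, because the deleted exons are not given. Every direction below therefore rests on the label Rad KO alone. An antisense gene that overlaps the Rrad locus, Gm33023 (chromosome 8, 104630832 to 104636492, on the opposite strand), had 1.18, 0.75, 0.72 and 0.92 CPM in WT TAC and 1.82, 2.22, 2.49 and 1.71 CPM in Rad KO TAC. Its 2 groups did not overlap, with a log2 fold change of 1.20 (SE 0.29), but it did not pass (adjusted p = 0.23, edgeR quasi-likelihood). It was picked out after its values were seen, and the sources used here do not say whether counting used strand, so reads of Rrad and Gm33023 cannot be told apart where they overlap.

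Esr1 (chromosome 10, 4611593 to 5005614), which encodes oestrogen receptor alpha, had the lowest p of all genes tested. Tamoxifen is a ligand of this receptor, and tamoxifen-activated Cre recombinases carry its ligand-binding domain; the labels do not name the Cre used. Esr1 stood at 0.92, 1.61, 0.56 and 1.19 CPM in WT TAC 1 to 4. It stood at 1122, 338, 1337 and 2461 CPM in Rad KO TAC 1 to 4. All 4 WT TAC libraries were thus low and all 4 libraries labelled Rad KO TAC high, a log2 fold change of 10.25 (SE 0.68, adjusted p = 1.27e-04 by edgeR). In sham the level did not follow the label: WT sham 1 to 3 had 1.27, 1503 and 2224 CPM, and Rad KO sham 1 to 3 had 2019, 1.12 and 1933 CPM. Within TAC, the Rad KO label and the Esr1 level cannot be told apart. Gene-level counts do not show whether the reads come from the receptor gene or from a transgene that shares its sequence.

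The fit called 8 genes higher and 2 genes lower in Rad KO TAC, 0.0716% of the 13967 genes tested (0.0573% higher and 0.0143% lower). The higher genes were Esr1, Lipo2, Ostn, Grin2c, Gm33543, Fam81a, Dixdc1 and Dusp18, and the lower genes were Scd4 and Gpd1. They are a lipase-family gene, a secreted peptide, a glutamate receptor subunit, a phosphatase and a Wnt pathway component on the higher side, with enzymes of fatty acid desaturation and glycerol phosphate metabolism on the lower side. At an unadjusted p under 0.05 there were 856 genes (6.13%), 440 higher and 416 lower (3.15% and 2.98%). In 522 genes (3.74%) the 4 and the 4 libraries did not overlap, 304 with Rad KO above (2.18%) and 218 with Rad KO below (1.56%). In bulk tissue, fewer cells of a type and less RNA per cell cannot be told apart.

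**Figure D1:**
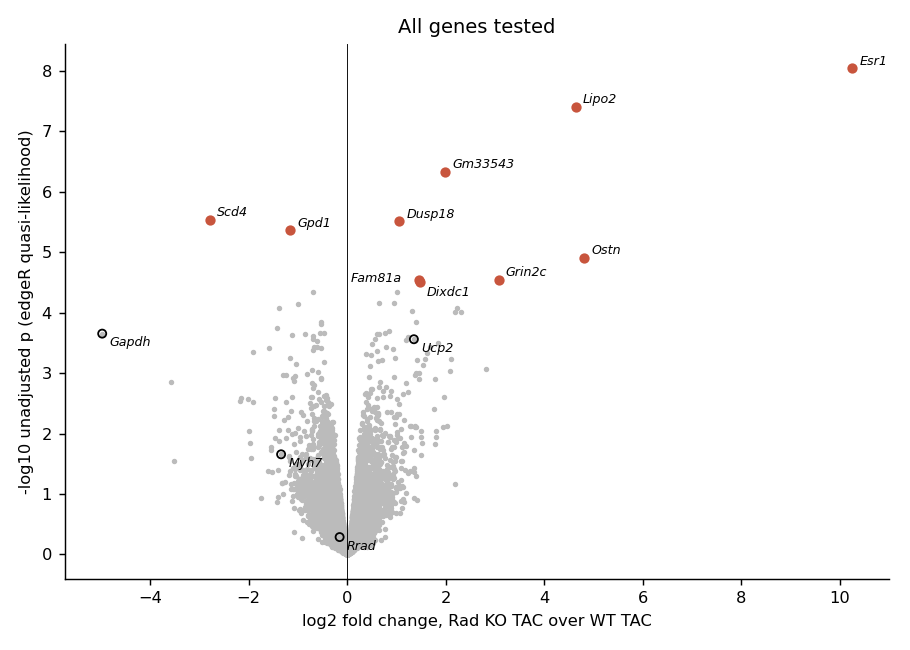
The log2 fold change of Rad KO TAC over WT TAC (horizontal) against -log10 of the unadjusted p of edgeR's quasi-likelihood test (vertical) for the 13967 genes tested, each point 1 gene. The 10 genes with an adjusted p under 0.05 are red, Esr1 lies far to the right at 10.25, and Rrad lies near 0 at -0.15; Gapdh, Ucp2 and Myh7 are ringed and did not pass.

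The number of calls moved with the tool and with single libraries. DESeq2 on the same libraries and genes called 110 genes (0.788%), 63 higher and 47 lower, with all 10 edgeR calls among them. Leaving out Rad KO TAC 3 left 3 higher and 0 lower calls. Leaving out WT TAC 2 left 4 and 1, WT TAC 3 left 4 and 2, and WT TAC 4 left 5 and 3, while leaving out WT TAC 1 gave 10 and 4. Esr1, Lipo2 and Gm33543 passed in all 8 of these fits. Scd4 and Dusp18 each lost the call without Rad KO TAC 3 (adjusted p = 0.0740 and 0.0608 by edgeR), and Gpd1 lost it without Rad KO TAC 3 or WT TAC 2 (0.0797 and 0.0577). Ostn passed only without Rad KO TAC 2 or 4, Grin2c only without Rad KO TAC 1, 2 or 4, and Fam81a and Dixdc1 only without WT TAC 1. The log2 fold changes of these 10 genes kept their sign in all 8 fits.

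Enzymes of lipid and glycerol metabolism made up both lower calls. Scd4 (chromosome 19, 44333092 to 44346743) encodes a stearoyl-CoA desaturase, an enzyme that puts a double bond into saturated fatty acids, and is the isoform known from mouse heart. It stood at 26.4, 30.6, 29.9 and 14.9 CPM in WT TAC and at 6.34, 2.02, 2.86 and 3.56 CPM in Rad KO TAC. The groups did not overlap, and the gene fell by 2.79 on the log2 scale (SE 0.32, adjusted p = 0.00866, edgeR). Its paralogs lie beside it on chromosome 19 and could share reads with it. Gpd1 (chromosome 15, 99717515 to 99725005) encodes the cytosolic glycerol-3-phosphate dehydrogenase, which makes glycerol 3-phosphate from a glycolytic intermediate. It stood at 50.03, 59.3, 52.5 and 48.2 CPM in WT TAC and 21.98, 30.8, 23.3 and 19.0 CPM in Rad KO TAC. It fell by 1.15 on the log2 scale (SE 0.14, adjusted p = 0.0101, edgeR), with every Rad KO TAC library below every WT TAC library. The 27 tested genes of cholesterol and fatty acid synthesis, a list put together after these values were seen and around these 2 genes, had a median of -0.07 against -0.008 for all genes tested, and nothing about the pathway is read from it. Hsd17b7, an enzyme of cholesterol synthesis that also reduces oestrone, had 21.1, 37.7, 31.7 and 19.2 CPM in WT TAC and 8.29, 9.33, 10.6 and 14.04 CPM in Rad KO TAC (log2 fold change -1.38, SE 0.23) and did not pass (adjusted p = 0.0694, edgeR).

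Lipo2 (chromosome 19, 33719670 to 33769142), of the acid lipase family, showed one of the widest gaps. It had 0.20, 0.16, 0.11 and 0.13 CPM in WT TAC, 10 counts in all, and 3.45, 2.87, 5.23 and 4.11 CPM in Rad KO TAC, 245 counts in all. The ratio of the pooled levels was 26.4 (95% interval 14.1 to 55.7 for counting error only), and the gene rose by a log2 fold change of 4.64 (SE 0.36, adjusted p = 2.72e-04, edgeR). Members of this lipase cluster are similar in sequence and could share reads. Ostn (chromosome 16, 27307489 to 27351212) encodes osteocrin, or musclin, a secreted peptide that binds the natriuretic peptide clearance receptor encoded by Npr3. It had 0, 0.11, 0 and 0.07 CPM in WT TAC, 3 counts in all, and 1.38, 1.24, 2.25 and 0.96 CPM in Rad KO TAC, 92 counts in all. The ratio was 33.0 (95% interval 10.95 to 163, counting error only), and the fitted log2 fold change of 4.81 (SE 0.65, adjusted p = 0.0247, edgeR) depends on the prior count. The other tested genes of the natriuretic peptide axis did not pass: Nppa had -0.71 (SE 0.71), Nppb -0.82 (SE 0.41) and Npr3 -0.29 (SE 0.23), the last 2 picked after their values were seen. Picked in the same way, Npr1 had -0.16 (SE 0.12), Corin 0.32 (SE 0.14), Npr2 0.01 (SE 0.09) and Furin 0.004 (SE 0.14). Of the 8 tested genes of this list, Ostn among them, 4 lay above 0 and 4 below.

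The other higher genes were expressed at low to moderate levels. Dusp18 (chromosome 11, 3895240 to 3901296), a dual-specificity phosphatase, had 66.4, 51.6, 52.8 and 67.3 CPM in WT TAC and 129, 141, 122 and 107 CPM in Rad KO TAC. It rose by 1.06 on the log2 scale (SE 0.12, adjusted p = 0.00866, edgeR), with no overlap. Grin2c (chromosome 11, 115249169 to 115267243), an NMDA-type glutamate receptor subunit, had 1.31, 1.61, 0.83 and 0.46 CPM in WT TAC and 5.78, 17.4, 7.90 and 5.14 CPM in Rad KO TAC (log2 fold change 3.07, SE 0.46, adjusted p = 0.0427, edgeR). All Rad KO TAC libraries were above all WT TAC libraries, and Rad KO TAC 2 was the highest. Dixdc1 (chromosome 9, 50662752 to 50739517), a DIX domain protein of the Wnt pathway, had 3.80, 7.45, 6.67 and 8.30 CPM against 18.3, 22.9, 15.2 and 17 CPM (1.47, SE 0.22). Fam81a (chromosome 9, 70088511 to 70142560) had 14.8, 12.9, 7.45 and 10.6 CPM against 26.8, 43.7, 27.1 and 29.6 CPM (1.47, SE 0.22). Both had an adjusted p of 0.0427 by edgeR. The predicted protein-coding gene Gm33543 (chromosome 10, 95823973 to 95842930) had 1.57, 1.45, 1.83 and 2.17 CPM in WT TAC and 7.41, 7.37, 6.32 and 7.05 CPM in Rad KO TAC (1.99, SE 0.19, adjusted p = 0.00217, edgeR). It is 1 of the 3 genes that passed whichever TAC library was left out.

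**Figure D2:**
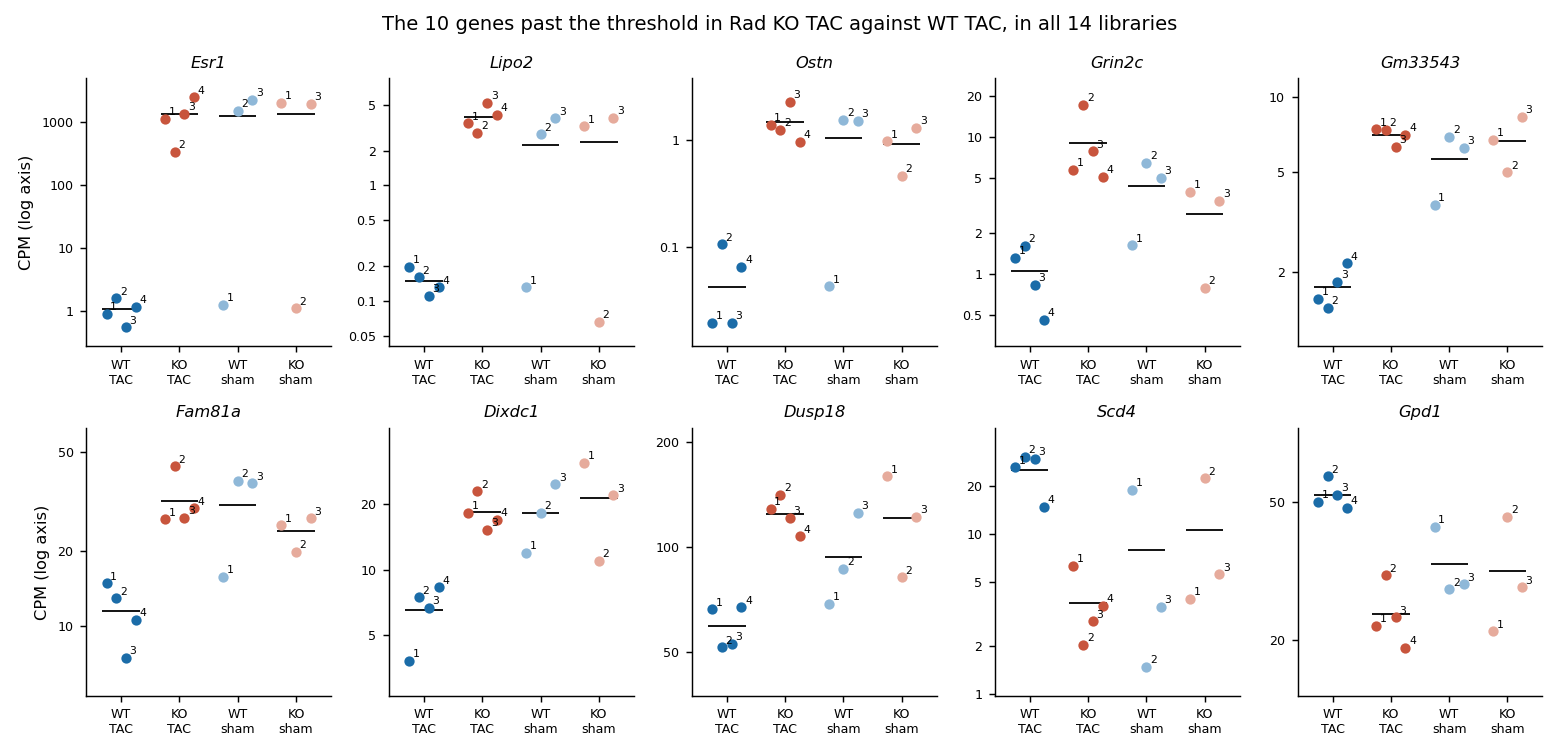
CPM (log axis) of the 10 genes that passed, in all 14 libraries; each point is 1 library with its replicate number, and bars are group means. For Ostn, libraries without a count (WT TAC 1 and 3) are drawn at the foot of the panel. In every panel the 4 WT TAC and the 4 Rad KO TAC libraries do not overlap, and WT sham 1 and Rad KO sham 2 lie on the WT TAC side of the other sham libraries.

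Oestrogen receptor motifs were looked for in the promoters of the called genes. RefSeq promoter windows (GRCm38.p6) were found for 8 of the 10 genes, with 10 windows, and Gpd1 and Ostn were not matched. The windows of Dixdc1, Fam81a, Esr1 and Lipo2 lie wholly inside the gene as deposited. That of Scd4 has 234 of its 250 bases inside and that of Gm33543 has 20. Only those of Grin2c and Dusp18 lie wholly outside. The full oestrogen response element GGTCANNNTGACC, read on both strands, was in 0 of these 10 windows and in 0.0639% of 32851 promoters of mouse. The half-site AGGTCA, also read on both strands, was in 1 of 10, against 14.02% of all promoters. That window belongs to Grin2c and is shown beside that of Dusp18, which holds neither motif; each is the 250 bases before the annotated start, 5′ to 3′ on the gene's strand, with the half-site in capitals.
Grin2c, chr11:115267244-115267493, minus strand: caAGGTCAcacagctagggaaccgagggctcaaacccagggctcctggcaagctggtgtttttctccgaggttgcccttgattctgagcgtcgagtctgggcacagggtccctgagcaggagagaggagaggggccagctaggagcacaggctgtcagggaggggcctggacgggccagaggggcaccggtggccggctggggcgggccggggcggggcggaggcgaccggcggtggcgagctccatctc
Dusp18, chr11:3894990-3895239, plus strand: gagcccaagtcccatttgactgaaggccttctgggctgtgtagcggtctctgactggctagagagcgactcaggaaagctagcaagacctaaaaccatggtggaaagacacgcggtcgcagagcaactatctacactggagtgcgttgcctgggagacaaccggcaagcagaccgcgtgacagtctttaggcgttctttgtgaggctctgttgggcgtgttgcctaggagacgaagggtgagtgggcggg
A match describes letters in these windows and is not a binding site, and its absence says nothing of sites elsewhere.

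The sham libraries show how the called genes lay when label and Esr1 level came apart. WT sham 1 and Rad KO sham 2 were the sham libraries with low Esr1. Among the 7 called higher genes other than Esr1, these 2 libraries were the 2 lowest of the 6 sham libraries in all 7, against 11.9% of the 6730 tested genes with a higher level in Rad KO TAC. Among the 2 called lower genes they were the 2 highest in both, against 13.3% of the 7236 tested genes with a lower level. For Scd4, WT sham 1 and Rad KO sham 2 had 19.0 and 22.5 CPM, while the other 4 sham libraries had 1.47 to 5.62 CPM. For Lipo2 they had 0.13 and 0.07 CPM, while the others had 2.78 to 3.88 CPM. Gm33543 lay closer together, at 3.71 and 5.003 CPM against 6.27 to 8.33 CPM. These orders are a description, with no test.

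The same contrast of labels in sham called 0 of 14731 genes by edgeR (0%), with 847 at an unadjusted p under 0.05 (5.75%), and DESeq2 called 15 (0.102%). The difference between the label's effect in TAC and in sham, tested in 1 model of all 14 libraries, called 0 genes by edgeR (0%), with 754 at an unadjusted p under 0.05 (5.12%), and 8 by DESeq2 (0.0543%). Without WT sham 1, 1 of the low-Esr1 sham libraries, edgeR called 4 genes for that difference: Fam81a, Gm33543, Ucp2 and Ostn. With all 14 libraries, none of the 10 genes was shown by edgeR to respond to the label differently under load. For Scd4 the label's log2 fold change was -2.79 in TAC and 0.39 (SE 0.71) in sham, and for Gpd1 it was -1.15 and -0.07 (SE 0.23). When the log2 Esr1 level was added to the model of 14 libraries, a step chosen after the data were seen, 0 genes passed in TAC and 452 had an unadjusted p under 0.05. The label's log2 fold change in TAC was then -0.50 (SE 0.54) for Scd4, 0.34 (SE 0.63) for Lipo2 and -0.45 (SE 0.18) for Gpd1. It was 2.59 (SE 1.08) for Ostn and 1.39 (SE 0.25) for Gm33543 (adjusted p = 0.446, edgeR). In this model the label's effect in TAC depends on an Esr1 slope fitted within all groups. That slope rests mostly on the 6 sham libraries, where log2 Esr1 spreads most within a group. Among the called genes the slope itself passed only for Lipo2 (adjusted p = 2.01e-04, edgeR). The adjusted p of the slope by edgeR was 0.0531 for Scd4, 0.0784 for Gpd1 and 0.472 to 0.757 for the others. The same model without Esr1 called 1 gene higher (Gm33543) and 1 lower (Pim1).

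**Figure D3:**
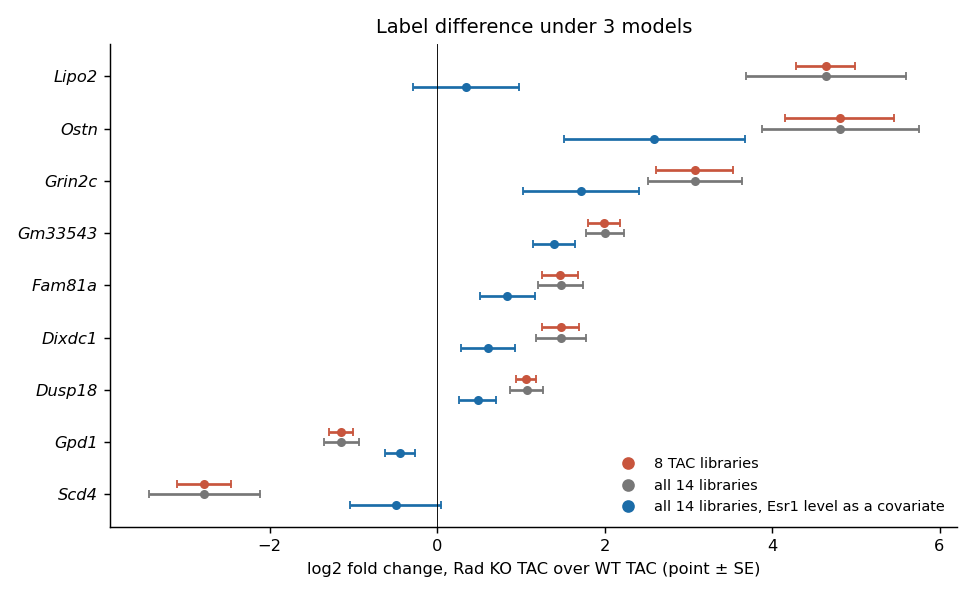
The log2 fold change of Rad KO TAC over WT TAC (point, with SE as the bar) for the 9 called genes other than Esr1, from the 8 TAC libraries, from all 14 libraries, and from all 14 libraries with the Esr1 level as a covariate. The estimates of the first and second model are alike, and those of the third lie nearer to 0 for all 9 genes, at 0.34 for Lipo2 and 1.39 for Gm33543. The Esr1 slope of the third model passed only for Lipo2 among these genes (adjusted p = 2.01e-04, edgeR).

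Several genes lay just outside the threshold. Pim1, a serine/threonine kinase, had 17.6, 17.8, 18.5 and 17.1 CPM in WT TAC and 10.4, 10.4, 11.7 and 11.7 CPM in Rad KO TAC, a log2 fold change of -0.69 (SE 0.11, adjusted p = 0.0539, edgeR). Pde1c, a calmodulin-dependent phosphodiesterase, had -1.002 (SE 0.16), and the endocytic adaptor gene Epn3 had -1.42 (SE 0.26). The lipid phosphatase gene Fig4, Fam189a2, the semaphorin gene Sema4d and the RNA helicase gene Dhx37 had -0.53, -0.53, -0.47 and -0.56. On the higher side, Abhd18, of the hydrolase family, had 0.64 (SE 0.10). The adjusted p of these genes by edgeR lay between 0.0539 and 0.0982, and DESeq2 called each of them. Leaving out 1 library brought 2 of them under the threshold: Pde1c without WT TAC 4 (-1.13, adjusted p = 0.02, edgeR) and Abhd18 without WT TAC 1 (0.71, 0.0376). With Esr1 in the model of 14 libraries, Pim1, Pde1c, Epn3 and Abhd18 had -0.54, -0.51, -0.47 and 0.41. Fig4, Fam189a2, Sema4d and Dhx37 then had -0.22, -0.21, -0.02 and -0.20.

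The calcium channels and their RGK regulators are the molecules nearest to Rad. Of 17 listed genes 16 were tested and 0 passed, where 0.0716% of all genes tested did. At that share, 0 calls in 16 genes say little about the list. At an unadjusted p under 0.05 by edgeR, 0 were higher and 4 lower, against 3.15% and 2.98% of all genes tested. The groups did not overlap in 2, with Rad KO below, against 1.56% of all genes tested. Among the 16, 6 had a log2 fold change above 0 and 10 below, with a median of -0.17 against -0.008 for all genes tested. Cacna1c, the pore of the cardiac L-type channel, had 397, 302, 303 and 279 CPM in WT TAC and 239, 298, 289 and 296 CPM in Rad KO TAC, which overlap (log2 fold change -0.20, SE 0.13). Cacnb2, the main cardiac beta subunit and so a binding partner of Rad, had 56.3, 54.0, 51.0 and 60.9 CPM in WT TAC and 34.0, 44.2, 37.8 and 49.2 CPM in Rad KO TAC. Cacna2d1, the main cardiac alpha-2-delta subunit, had 243, 191, 186 and 193 CPM in WT TAC and 155, 143, 158 and 169 CPM in Rad KO TAC. For both genes all Rad KO TAC libraries lay below all WT TAC libraries, with log2 fold changes of -0.43 (SE 0.12) and -0.39 (SE 0.11) and adjusted p = 0.411 each by edgeR. WT sham 1 and Rad KO sham 2, with low Esr1, had 197 and 234 CPM of Cacna2d1, and the other sham libraries had 140 to 190 CPM. Both thus stood above the other sham libraries, as for 13.3% of the 7236 tested genes with a lower level in Rad KO TAC. Cacnb2 had the same order, and Cacna1g and Cacna1h did not. In sham the label's log2 fold change for Cacna2d1 was 0.35 (SE 0.14), opposite in sign to TAC. The difference of the 2 effects was -0.73 (SE 0.19, adjusted p = 0.672, edgeR).

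The T-type channel genes Cacna1g and Cacna1h had -0.72 (SE 0.26) and -0.83 (SE 0.37), with overlapping groups. The other pores and accessory subunits had log2 fold changes of 0.07 for Cacna1d, 0.07 for Cacnb1, -0.27 for Cacnb3, 0.11 for Cacnb4, -0.11 for Cacna2d2, 0.41 for Cacna2d3, 0.99 for Cacng6 and -0.21 for Cacng7. Among the relatives of Rad, Rem1 had -0.39 (SE 0.25), Gem had 0.38 (SE 0.20) and Rem2 was not tested. The sign for Rrad, Cacna1d, Cacnb1, Cacnb4 and Cacna2d2 turned when 1 library was left out, so that these 5 genes have no direction here. The sign for Gem, Cacna1c, Cacnb2 and Cacnb4 turned with Esr1 in the model.

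**Figure D4:**
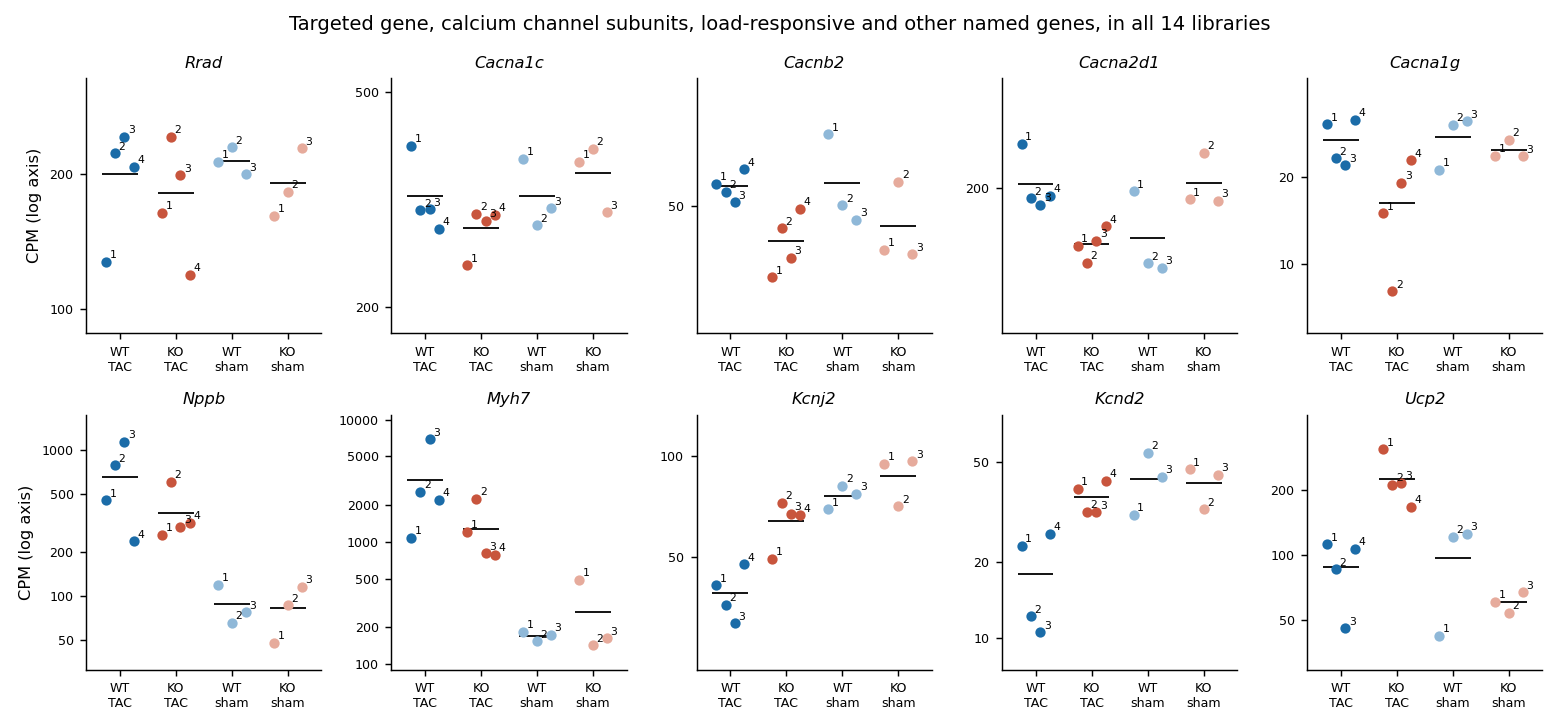
CPM (log axis) of Rrad, 4 calcium channel genes, Nppb, Myh7, 2 potassium channel genes and Ucp2 in all 14 libraries; each point is 1 library with its replicate number, and bars are group means. Rrad overlaps fully between labels, Cacnb2, Cacna2d1, Kcnj2, Kcnd2 and Ucp2 do not overlap between WT TAC and Rad KO TAC, and Nppb and Myh7 spread widely within WT TAC.

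Calcium cycling and repolarising channels gave no call by edgeR. Of 25 tested genes of the sarcoplasmic reticulum and calcium cycling, 0 passed, the median was -0.04, and the log2 fold change of Slc8a1, the sodium-calcium exchanger, was 0.22 (SE 0.18). The largest value of the list was that of Casq1, at 0.72 (SE 0.35). It had 51.2 CPM in Rad KO TAC 4 and 14.8 to 28.6 CPM in the other Rad KO TAC libraries. Of 26 genes for sodium, potassium and gap junction channels 0 passed, and the median was -0.02. Kcnj2, of the inward rectifier, had 41.2, 36.0, 31.7 and 47.6 CPM in WT TAC and 49.5, 72.6, 67.3 and 66.7 CPM in Rad KO TAC. Kcnd2, a pore of the transient outward current, had 23.3, 12.2, 10.6 and 26.0 CPM in WT TAC and 39.3, 31.8, 31.7 and 42.3 CPM in Rad KO TAC. Neither gene overlapped between groups, and the log2 fold changes were 0.71 (SE 0.15) and 1.01 (SE 0.26), with adjusted p = 0.14 and 0.311 by edgeR and 0.00369 and 0.0237 by DESeq2. Kcnip2, the accessory subunit of the same outward current, had 0.65 (SE 0.19) with overlapping groups. Of 25 tested beta-adrenergic and cAMP genes 0 passed; the phosphodiesterase gene Pde4d had 0.44 (SE 0.12) and the protein kinase A regulatory subunit gene Prkar1a had -0.52 (SE 0.23).

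Of the genes that pressure load is known to raise, 0 passed. All 11 tested members of the load-responsive list had a log2 fold change below 0, where 51.8% of all genes tested did, and the list median was -0.66. Nppb, B-type natriuretic peptide, had 451, 783, 1130.3 and 237 CPM in WT TAC and 261, 605, 296 and 315 CPM in Rad KO TAC. Myh7, the slow beta-myosin heavy chain, had 1079.9, 2577, 6897 and 2221 CPM in WT TAC and 1216, 2258, 808 and 788 CPM in Rad KO TAC (log2 fold change -1.34, SE 0.50, adjusted p = 0.671, edgeR). The spread within WT TAC was wide, with WT TAC 3 highest in both genes. Rcan1, a calcineurin target, and Xirp2, an intercalated disc protein, had -0.77 (SE 0.36) and -0.60 (SE 0.28). Without WT TAC 3 the list median was -0.41, and with Esr1 in the model of 14 libraries it was -0.17. Nppa had 376, 927, 1714 and 247 CPM in WT TAC against 244, 1349, 148 and 262 CPM in Rad KO TAC, and its sign turned with Esr1 in the model (0.50).

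Of 20 sarcomere and Z-disc genes 0 passed, with a median of -0.11. Myom2, an M-band protein, had 1616, 1323, 2302 and 1062 CPM in WT TAC and 622, 979, 794 and 702 CPM in Rad KO TAC, without overlap (log2 fold change -1.03, SE 0.22, adjusted p = 0.155 by edgeR and 8.2e-04 by DESeq2). WT sham 1 and Rad KO sham 2, with low Esr1, had 1291 and 809 CPM of Myom2, and the other sham libraries had 344 to 628 CPM. The same order held in 13.3% of the 7236 tested genes with a lower level in Rad KO TAC. Tnnt2, cardiac troponin T, had -0.36 (SE 0.13) and Myl4, the atrial light chain, had 0.67 (SE 0.29). With Esr1 in the model of 14 libraries, Myom2, Tnnt2 and Myl4 had -0.10 (SE 0.31), -0.06 (SE 0.16) and 0.69 (SE 0.40). Of 29 tested genes of calcineurin, NFAT, MEF2 and hypertrophic signalling, 0 passed and the median was 0.01. In 4 of the 29 the groups did not overlap, with Rad KO above, against 2.18% of all genes tested. Among these, the transcription factor genes Nfatc2, Tbx5 and Nfatc1 had 0.72 (SE 0.19), 0.57 (SE 0.16) and 0.31 (SE 0.09). Their adjusted p was 0.31, 0.401 and 0.485 by edgeR.

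Matrix and growth factor lists also held no call. Of 21 collagen genes 19 had a log2 fold change below 0, with a median of -0.20, which was -0.02 without WT TAC 2 and -0.09 without Rad KO TAC 2. Col8a1 had -0.65 (SE 0.26), and the basement membrane chains Col4a3 and Col4a4 had -0.65 (SE 0.27) and -0.36 (SE 0.16). Among 42 other matrix genes 27 lay below 0 (median -0.19), among them Eln, which encodes elastin, at -0.83 (SE 0.27), Fbln2 at -0.42 (SE 0.15) and Cthrc1 at -1.95 (SE 0.76). In the list of TGF-beta and CCN genes, 22 were tested and the median was -0.18. Gdf15, a stress-induced cytokine, had 5.57, 9.11, 41.5 and 12.1 CPM in WT TAC and 3.39, 6.26, 2.98 and 2.74 CPM in Rad KO TAC, with a log2 fold change of -2.16 (SE 0.56, adjusted p = 0.311, edgeR). Gdf6 had 2.36, 6.75, 9.34 and 1.91 CPM against 0.94, 1.89, 1.76 and 0.82 CPM, just without overlap (-1.91, SE 0.51, adjusted p = 0.332 by edgeR and 0.0177 by DESeq2). Wisp1 had -0.61 (SE 0.24). Of 20 immediate early genes 16 lay below 0 with a median of -0.24, which was 0.01 without WT TAC 3; Egr3, Btg2 and Ier2 had -0.72, -0.50 and -0.38.

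**Figure D5:**
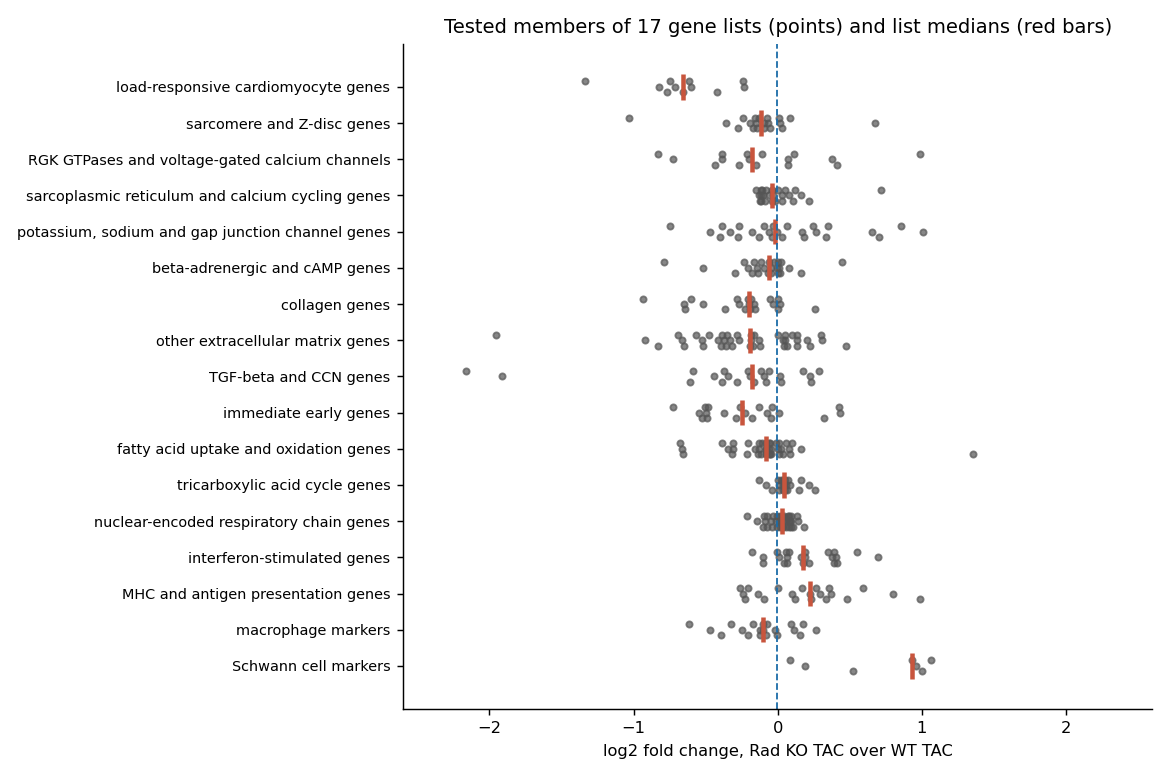
The log2 fold change of Rad KO TAC over WT TAC for the tested members of 17 gene lists; each point is 1 gene, red bars are list medians and the dashed line is the median of all genes tested. The load-responsive list lies wholly below 0 with a median of -0.66, and the Schwann cell markers lie wholly above 0 with a median of 0.93.

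Energy metabolism lists had medians near 0. Of 39 genes of fatty acid uptake and oxidation 0 passed, with a median of -0.08. Ucp2, an inner mitochondrial membrane carrier, stood apart within that list, with 112, 85.8, 45.8 and 106 CPM in WT TAC and 307, 211, 214 and 166 CPM in Rad KO TAC. Its groups did not overlap (log2 fold change 1.36, SE 0.26, adjusted p = 0.101 by edgeR and 6.67e-05 by DESeq2). The lipid droplet gene Plin2 had -0.31 (SE 0.10). Of 21 genes of the tricarboxylic acid cycle 18 lay above 0, but the median was only 0.04, and the nuclear-encoded respiratory chain had a median of 0.03 over 36 genes. The share of counts on the 13 mitochondrially encoded genes was 20.4% ± 0.779 in Rad KO TAC and 18.9% ± 1.08 in WT TAC (SD, n = 4 each), a difference of 1.5 percentage points (exact two-sided permutation test, p = 0.0857, where the smallest p possible is 0.0286). Within it, mt-Atp6 had 500.0, 628, 696 and 670.4 CPM in WT TAC and 879, 1039.9, 1364 and 1242 CPM in Rad KO TAC (0.85, SE 0.16, adjusted p = 0.0982 by edgeR and 5.48e-05 by DESeq2). The label's log2 fold change for mt-Atp6 was 1.21 in sham (SE 0.19, adjusted p = 0.150, edgeR). In TAC it was 1.11 (SE 0.23) with Esr1 in the model of 14 libraries. This gene overlaps mt-Atp8, so that reads could be shared. The largest negative value of all genes tested was that of the glycolytic gene Gapdh, with 3.15, 273, 173 and 91.2 CPM in WT TAC and 2.83, 5.94, 4.44 and 4.11 CPM in Rad KO TAC. WT TAC 1 thus lay among the Rad KO TAC libraries, the adjusted p was 0.0982 by edgeR and 6.79e-04 without WT TAC 1, and near-identical copies of Gapdh in the genome can take its reads.

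The interferon, MHC and guanylate-binding protein lists had medians above 0 and held 0 calls by edgeR. Of 23 interferon-stimulated genes 19 had a log2 fold change above 0, with a median of 0.18, but this was -0.03 without Rad KO TAC 1. Of 21 genes of MHC and antigen presentation 15 lay above 0, with a median of 0.22, which was 0.07 without Rad KO TAC 1; Nlrc5, an activator of MHC class I genes, had 0.99 (SE 0.34) and the peptide transporter gene Tap1 had 0.48 (SE 0.22). The guanylate-binding proteins, interferon-induced GTPases listed after their values were seen, were all above 0 in 8 of 8 tested genes, with a median of 0.43. Rad KO TAC 1 was the highest TAC library for Gbp2, Gbp3, Gbp4, Gbp5, Gbp6, Gbp7 and Gbp9, but not for Gbp10. For Gbp2 it had 35.7 CPM, against 19.5 to 24.7 CPM in the other Rad KO TAC libraries. Gbp6 had 8.66, 9.22, 8.12 and 7.31 CPM in WT TAC and 18.9, 18.6, 17.9 and 12.1 CPM in Rad KO TAC (1.01, SE 0.16, adjusted p = 0.0539, edgeR). Gbp10 had 1.11, 0.70, 0.28 and 0.86 CPM against 2.76, 4.24, 2.61 and 3.77 CPM (2.18, SE 0.37, adjusted p = 0.0694, edgeR). Gbp6 and Gbp10 lie close together on chromosome 5 and are similar enough to share reads, and without Rad KO TAC 4 Gbp6 passed (adjusted p = 0.0120, edgeR).

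Cell type markers were read in the same 8 libraries. The defining cardiomyocyte markers were abundant, with a summed level of 53960.4 to 72574 CPM in WT TAC and 57152 to 64757 CPM in Rad KO TAC. Fibroblast, endothelial, mural and macrophage markers overlapped between the groups, with list medians of 0.06, -0.04, -0.11 and -0.10. The 7 tested Schwann cell markers all lay above 0 with a median of 0.93, and none passed. Their summed level was 9.22 to 10.6 CPM in WT TAC and 6.07 to 22.1 CPM in Rad KO TAC, with Rad KO TAC 2 lowest, and the median was 0.49 without Rad KO TAC 1 and 0.44 without Rad KO TAC 4. Whether Schwann cell content plays a part in any other difference was not tested. Acta2, smooth muscle actin, had 1.5 (SE 0.50) with 708 CPM in Rad KO TAC 4 alone, and its sign turned with Esr1 in the model.

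The remaining lists held 0 calls by edgeR and few genes of note. Cenpf, a kinetochore protein, had 9.90, 8.73, 5.23 and 4.41 CPM in WT TAC and 10.3, 18.1, 17.9 and 28.6 CPM in Rad KO TAC (1.40, SE 0.32, adjusted p = 0.195 by edgeR and 0.00234 by DESeq2), while its list of cell cycle genes had a median of 0.19. Among 12 oestrogen-responsive genes 4 lay above 0 and 8 below, and the gene Ptgds had 212 CPM in Rad KO TAC 1 but 36.2 to 61.2 CPM in the other 3 (-1.03, SE 0.47; -1.91 and adjusted p = 0.0227 by edgeR without Rad KO TAC 1). Of 11 glucocorticoid-responsive genes 8 lay above 0, with a median of 0.31 and 0.55 (SE 0.23) for Tsc22d3. Oxidative stress genes had a median of 0.14, with 0.71 (SE 0.25) for the metallothionein gene Mt1 and 0.38 (SE 0.16) for haem oxygenase, Hmox1. The lists of circadian clock, DNA damage, unfolded protein response, ATF4, glycolysis and nuclear receptor genes had medians between -0.06 and 0.08.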

How the data were processed

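PolyA-enriched mouse ventricle RNA was sequenced; the 2 deposited tables, WT and Rad KO, were joined on gene ID (22136 genes in both, of 24279 and 23925), and samples were grouped by the labels. Raw counts of each gene in each library are among the deposited columns, per the file headers, and only these counts were tested. The tables also hold a deposited normalized signal, deposited FPKM values and, per the file headers, the authors' log2 fold change of TAC over sham with its p-value, none of which enters a result here. The submitters' processing notes name mm10, HISAT2, edgeR and DESeq2; tool versions and roles, read counter, strandedness and annotation release: not given in the sources used here. Genes in only 1 table had at most 24 counts in all.

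Counts of the 8 TAC libraries (14546176 to 17652010 per library) were scaled by TMM and fitted in R 4.3.3 with edgeR 4.0.16 after filterByExpr (minimum count 10, minimum total 15), using its quasi-likelihood F-test and Benjamini-Hochberg adjustment over 13967 genes, threshold 0.05. An SE is the log2 fold change over the square root of F. The sham contrast and the difference were taken from a model of all 14 libraries by group. CPM values use TMM over all 14. Intervals of count ratios cover counting error only. Named genes were the called protein-coding genes with no overlap and a mean of at least 20 counts, filled to 10 per direction by p, Rrad, Esr1, all RGK and calcium channel genes, and up to 3 members by p of each of 42 lists; other names are said to be chosen after their values were seen. Some genes that this rule names are not reported here. The members, lists and tests were chosen with earlier results of these data known. Results for list members not printed are in the list counts and medians. Scripts were tested on simulated data. Alternatives were DESeq2 1.42.0, its size factors in edgeR, no filter, the replicate number as a block, all 14 libraries, stricter thresholds, leaving out each library and, added after seeing the data, log2(Esr1 CPM + 1) as a covariate. Figures used matplotlib 3.10.9 in Python 3.11.15.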

Additional observations from a re-analysis of the deposited data

Results flagged for a closer look

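For 103 named genes, not all of them described above, 206 groups of 4 TAC libraries were examined. Of these, 13 held 1 library far from the other 3 by Dixon's test, where chance marks about 1 in 20 groups. The following libraries stood apart, with the range of the other 3 in the group after each value. Rad KO TAC 2 was high for Fam81a (43.7 CPM against 26.8 to 29.6), Nfatc2 (41.0 against 23.7 to 25.9), Klhl38, a muscle proteolysis gene (19.9 against 14.004 to 14.3), Cacnb1 (30.7 against 10.8 to 14.2), Nppb (605 against 261 to 315) and Nppa (1349 against 148 to 262), and low for Rem1 (2.74 against 5.65 to 6.16). Rad KO TAC 1 was high for Ptgds (212 against 36.2 to 61.2) and low for Cacna1c (239 against 289 to 298). Rad KO TAC 4 was low for Gbp6 (12.1 against 17.9 to 18.9). WT TAC 1 was high for Cacna2d1 (243 against 186 to 193). The haemoglobin gene Hba-a2 was high in WT TAC 1 (25.6 CPM against 0.05 to 1.45) and in Rad KO TAC 3 (1.82 against 0.07 to 0.33).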

How the results depend on the processing

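In Rad KO TAC against WT TAC, 8 genes were called higher and 2 lower. The counts were 63 and 47 with DESeq2, 22 and 8 without the filter on low counts, 1 and 1 in the model of 14 libraries, 0 and 0 with Esr1 as a covariate, and 4 and 1 at an adjusted p under 0.01. Leaving out 1 library gave 3 to 10 higher and 0 to 4 lower. The cause of these moves was not tested. With the replicate block, 4 were higher and 2 lower. The correlations of same-numbered deviations were -0.13, -0.11, -0.02 and 0.18, so the numbers do not pair the libraries. For the label in sham, DESeq2 called 11 higher and 4 lower, and leaving out 1 library gave 0 to 1 higher. For the difference of the effects, DESeq2 called 7 higher and 1 lower, and leaving out 1 library gave 0 to 4 higher, the 4 without WT sham 1. The share of mitochondrial counts differed by 1.12 to 1.99 points when 1 library was left out.

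Each alternative was run for 103 named genes. Among them, with Esr1 as a covariate the sign turned for Cacnb2 (0.080), Acta2 (-0.16), Aldh1l2 (-0.058), mt-Nd3 (0.025), Slc16a1 (0.13), Gem (-0.64), Cacna1c (0.071), Nppa (0.50) and Cacnb4 (-0.064). It also turned for some genes that the naming rule gave but the text does not describe, among them Cidea (0.053), Mki67 (-0.37), Camk2g (0.17), Wt1 (-0.089), Lrrn4 (-0.017), Tbx18 (0.087) and Csf3r (0.14). Over single omitted libraries, values ran from -0.32 to 0.0016 for Rrad, -0.24 to 0.018 for Cacna2d2, -0.35 to 0.33 for Cacnb1, -0.14 to 0.31 for Cacna1d, -0.24 to 0.67 for Cacnb4 and -0.19 to 0.13 for Xist. Of the other values of the 103 genes under the alternatives, 1333 kept direction and side of the threshold, 51 lost the call and 36 gained it. Only the 10 called genes had a call to lose, so all 51 losses were theirs. Most of the 1333 belong to genes without a call, so this number does not show that the calls are stable. Depth limits the lowest genes most, such as Ostn and Lipo2, with 3 and 10 counts over WT TAC.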
